A study of Mus musculus with 12 samples.

Results

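The sites described here are CpG dinucleotides with A before and T after, so that the sequence around each of them is ACGT. ACGT reads the same on both strands, and both cytosines of such a site are therefore followed by G and then T. Of the 21867550 CpG sites counted in the mouse genome (mm10, GRCm38), 1466118 (6.70%) were members: they are autosomal, have A before and T after the CpG on the forward strand, and lie in sparse sequence, with 5 or fewer CpG sites, themselves included, within 100 bp on each side. They made up 9.30% of the 15761900 sparse autosomal sites. The rule uses sequence and position alone and no methylation value, but it was written with earlier results of these data known.

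Methylation was measured by enhanced reduced representation bisulfite sequencing (eRRBS), in which genomic DNA is cut with MspI, BfaI and MseI, treated with bisulfite and sequenced, so that an unmethylated cytosine is read as T. All 12 lines came from mouse embryonic stem (ES) cells with a triple knockout (TKO) of Dnmt1, Dnmt3a and Dnmt3b, transfected with the pPyCAGIZ vector and selected and maintained in Zeocin. There were 2 independently derived lines for each of 6 groups: human DNMT3A, human wild-type (WT) DNMT3B in set a and again in set b, and the DNMT3B mutants N656I, K777A and N779A. N656I and DNMT3A were compared with set a, and K777A and N779A with set b, whose library names share the prefix of the K777A and N779A libraries. The transgenes carry human enzymes in mouse cells, each line is a separate derivation, and TKO cells without a transgene were not analysed here, so no level below has a background subtracted.

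DNMT3A and DNMT3B are the mammalian enzymes that methylate CpG sites de novo, and DNMT1 is the enzyme that copies methylation to the new strand after replication. In TKO cells the endogenous enzymes are missing, and the methylation seen is the product of the introduced enzyme without DNMT1. The bases that flank a CpG affect how readily these enzymes methylate it. N656 of DNMT3B lies in the catalytic loop, and N656I was made to ask whether this loop affects the preference for CpG over other cytosines. K777 and N779 lie in the DNA-contacting loop of the target recognition domain, and their mutants address how that loop reads the CpG and the base after it.

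Positions are counted from the C of the CpG as −1 before it and +1 for the base after the G, as read 5′ to 3′ on each strand. At an ACGT site +1 is T on both strands, and −2 on one strand is the complement of +2 on the other. The same holds for +3 and the base equally far before the CpG. As the deposited counts merge both strands, the strands of a site cannot be ordered, and the bases at +2 and +3 are given as the pair read on the 2 strands. The same base at +2 on both strands gives 1 of 4 palindromic hexamers. These are shown because the groups differed in which of them was the lowest:
A on both strands: TACGTA
C on both strands: GACGTC
G on both strands: CACGTG
T on both strands: AACGTT

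The hexamer CACGTG is the E-box, the element bound by basic helix-loop-helix factors such as Myc-Max and TFEB. GACGTC is the core of the cAMP response element, bound by CREB. G on both strands was the commonest of the 4, in 14.6% of the members, followed by T (7.78%), A (5.57%) and C (3.55%).

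Reads on CpG sites numbered between 16224222 and 36029921 per line. Those on members numbered between 1126165 and 2530847, on 67241 to 765338 covered members. WT set a replicate 2 stood apart, with 17.01 reads per covered member, whereas the other 11 lines had between 2.34 and 5.07. In that library 79.7% of the members with at least 10 reads had no methylated read and 11.2% were fully methylated, against 53.7% and 0.824% in set a replicate 1. Other replicates differed too: 15.5% of such members were fully methylated in DNMT3A replicate 2 and 5.23% in its replicate 1. In all, 1067950 members (72.8%) were covered in at least 1 line, 3245 in all 12 lines and 31 with 10 or more reads in all 12. The level of a line was therefore the mean of mC/allC, the methylated reads divided by all reads, over every member with at least 1 read, each member counting equally. The reads carry no molecular identifiers, so errors are SDs between lines (n = 2 per group) and not counting intervals.

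The first comparison asks how highly ACGT sites were methylated in each group. These levels also depend on how much a line was methylated as a whole. DNMT3A gave by far the highest level and N656I the lowest. K777A and N779A both exceeded the WT lines of their set.
The DNMT3A lines had levels of 42.8% and 42.6% (42.7% ± 0.155, SD). WT DNMT3B had 15.0% and 14.4% in set a and 12.3% and 11.3% in set b. N656I had 9.11% and 6.64% (7.88% ± 1.74). These groups did not overlap, and both N656I lines lay below all 4 WT lines. K777A had 13.7% and 16.1% (14.9% ± 1.75), and N779A had 14.5% and 16.3% (15.4% ± 1.27). Both lines of either mutant lay above both WT lines of set b, but K777A replicate 1 lay below both WT lines of set a, and the N779A lines lay on either side of WT set a replicate 1. Against set a the means of K777A and N779A were 0.184 and 0.651 points higher, and the lines overlapped.

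DNMT3A exceeded WT set a by 28.0 percentage points, and N656I fell by 6.83 points against the same lines. K777A and N779A exceeded WT set b by 3.12 and 3.58 points (1.88 for K777A without its replicate 2), while set b was lower than set a by −2.93 points (set b minus set a), a difference about as large. The lines did not overlap in any of these 5 comparisons, yet 2 lines against 2 cannot give a two-sided exact permutation p below 0.33, which is what each of the 5 gave (0.33 after Benjamini-Hochberg adjustment over the 5).

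**Figure D1:**
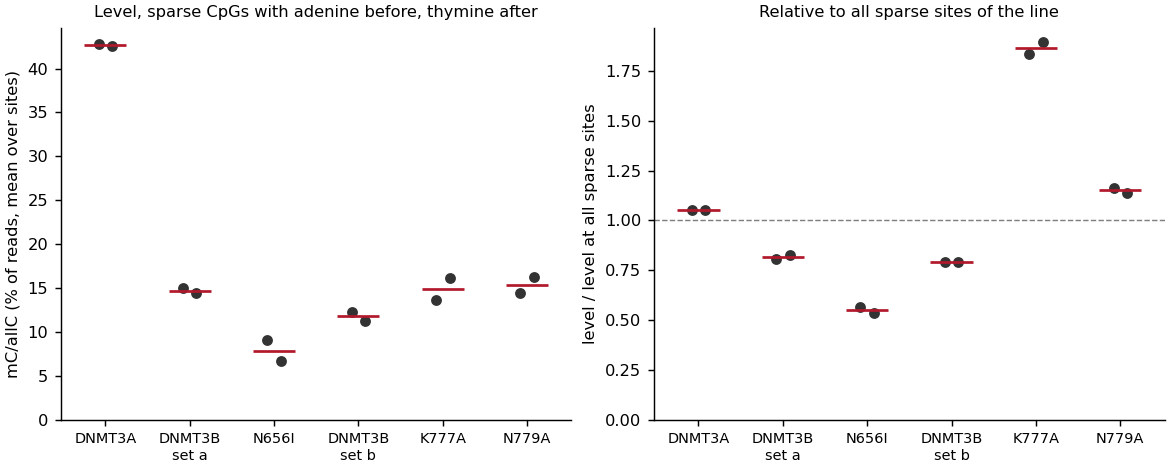
Methylation level at the ACGT sites (left, % of reads, mean over covered members) and the same level divided by the level at all sparse autosomal sites of the line (right). Points are lines, 2 per group, red bars are group means and the dashed line marks 1; the K777A lines sit at 1.84 and 1.90 on the right, and the N656I lines at 0.563 and 0.534.

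Relative to the level of the same line at all sparse autosomal sites, ACGT sites were close to average for DNMT3A and below it for WT DNMT3B. Such a ratio scales for how much a line was methylated as a whole, but also moves when other sites change. The ratio was 1.05 in both DNMT3A lines, 0.809 and 0.825 in WT set a and 0.791 in both lines of WT set b. It was 0.563 and 0.534 for N656I, the lowest of the 6 groups. For K777A it was 1.84 and 1.90, and for N779A 1.16 and 1.14. The 2 WT sets, whose levels differed, thus had nearly the same ratio, and the N656I, K777A and N779A lines all lay outside the WT range.

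With K777A, ACGT sites were more methylated than in WT set b while sparse sites as a whole were less so. At all sparse sites the K777A lines had 7.43% and 8.51% against 15.5% and 14.2% in WT set b. Among the 10 classes of bases next to the CpG (both strands merged), ACGT ranked first in both K777A lines. The class next in order, ACGA, had 10.2% and 11.7% there. CCGG, the highest class in WT set b (23.9% and 22.1%), was the lowest with K777A (2.05% and 2.08%). ACGT ranked the fourth in the DNMT3A and N779A lines, the sixth in all 4 WT DNMT3B lines, and 8 and 9 from the top in the N656I lines. The exact permutation p for the ratios was again 0.33 in each of the 5 comparisons, the smallest 2 lines against 2 allow.

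The next question is what the bases further out do. A at +2 on both strands (TACGTA) gave the highest of the 4 palindromic hexamers in 12 of 12 lines, whichever enzyme was expressed. The lowest hexamer depended on the enzyme: AACGTT in the 6 lines with DNMT3A, N656I or K777A, and the E-box hexamer CACGTG in the 6 lines with WT DNMT3B or N779A.
TACGTA had 61.0% and 59.8% with DNMT3A, 27.1% and 24.1% in WT set a, and 22.6% and 20.6% in WT set b. With the mutants it had 18.1% and 14.01% (N656I), 21.3% and 24.8% (K777A), and 26.1% and 28.5% (N779A). These were the highest levels of any of the 4 hexamers in every line. GACGTC was second in 10 of the lines and the third in both K777A lines, where CACGTG passed it.

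At the E-box hexamer CACGTG, the DNMT3A and K777A lines lay apart from all others.
It had 41.4% and 41.2% with DNMT3A, but only 7.26% and 7.76% in WT set a and 5.80% and 5.62% in WT set b. N656I gave 6.11% and 4.46%, and N779A gave 5.71% and 6.68%. K777A gave 12.9% and 15.3%. The K777A lines were thus 2.47-fold above WT set b at CACGTG, without overlap, while TACGTA (1.07-fold), AACGTT (1.07-fold) and GACGTC (0.898-fold) overlapped between K777A and set b. N779A showed the other picture. It was above set b without overlap at TACGTA (1.26-fold), AACGTT (1.54-fold) and GACGTC (1.37-fold), and overlapped with set b at CACGTG (1.08-fold).

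AACGTT, with T at +2 on both strands, separated N656I from the WT enzyme.
It had 27.8% in both DNMT3A lines, 13.4% and 12.9% in WT set a and 11.1% and 9.55% in set b. N656I gave 3.76% and 2.60%, which is 0.242 times WT set a, whereas TACGTA stood at 0.626, GACGTC at 0.603 and CACGTG at 0.704 times set a. K777A gave 10.0% and 12.1% and N779A 15.2% and 16.7%. The N656I lines lay far below all others at AACGTT. The level of TACGTA was 5.10 ± 0.413 times AACGTT in N656I lines, and between 1.71 and 2.17 times in the means of the other 5 groups.

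**Figure D2:**
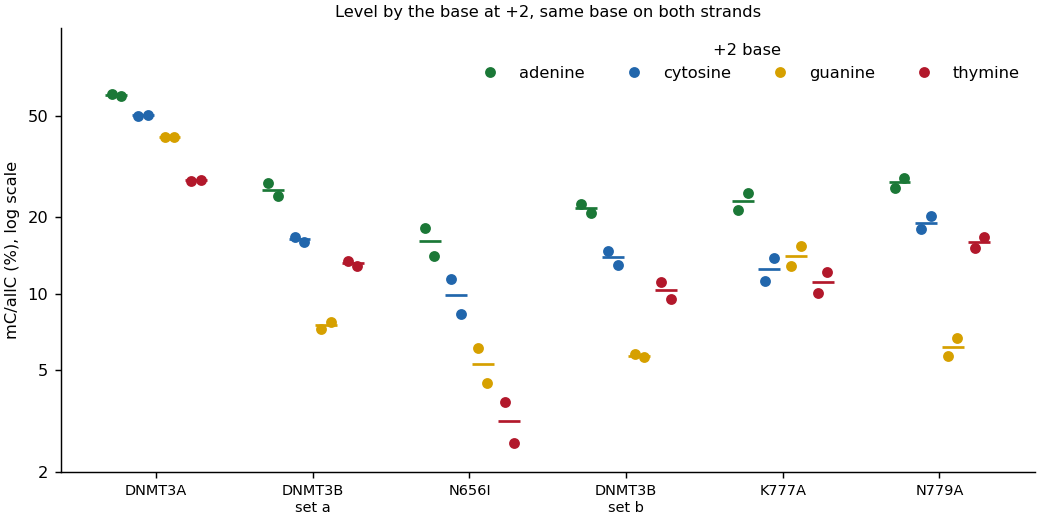
Methylation level (%, log axis) of ACGT sites that carry the same base at +2 on both strands, by group. Points are lines and bars are group means; adenine is highest in every line, guanine is lowest with WT DNMT3B and N779A, and thymine is lowest with DNMT3A, N656I and K777A.

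The effect of a single base was taken from a least-squares fit over all covered members in each line, on the number of strands (0, 1 or 2) that carry A, C, G or T at +2 and at +3. Effects are per strand, as a percentage of the level of the line, and are centred on 0 over the 4 bases.
Base +2 dominated. Alone it accounted for 67.3% to 82.3% of the variation between the contexts, weighted by sites, and +3 alone for 7.45% to 24.1%, the most in the K777A lines. Together they accounted for 83.4% to 93.2%. A base at +2 or +3 on one strand is the complement of the base equally far before the CpG on the other. The fit therefore cannot tell effects of the bases after the CpG from effects of the bases before it.

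A at +2 raised the level in 12 of 12 lines, by 30.4% ± 6.46 (SD over 12 lines, range 20.9 to 40.7). G and T at +2 lowered it in 12 of 12 lines, with means of −19.8% and −15.4%. T at +3 lowered it in 12 of 12 lines as well, with a mean of −11.0%. Each of these 4 had an exact two-sided sign-flip permutation p of 0.000488, the smallest that 12 lines allow, and 0.000977 after adjustment over the 8 effects. The 12 lines hold 5 proteins and are not replicates of 1 group, so this test says only that the direction was shared.
C at +3 (7.61%, 10 of 12 lines above 0, adjusted exact permutation p = 0.0143) and A at +3 (4.22%, 10 of 12 lines, adjusted exact permutation p = 0.00313) also passed. C at +2 (4.81%, 10 of 12 lines above 0, adjusted exact permutation p = 0.0725) and G at +3 (−0.786%, 8 of 12 lines below 0, adjusted exact permutation p = 0.625) did not. The lines that went against the others were the K777A lines for C at both positions and the N656I lines for A at +3. For these effects the direction was thus not shared by all groups, and the test counts the lines of a group separately. Without K777A replicate 1 or 2, C at +2 passed, with means of 6.15% and 6.04%.

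The size of the effects differed between the groups, most of all for G and T at +2.
G at +2 had effects of −30.6% and −27.3% in WT set a and −32.1% and −30.9% in set b. It had only −3.67% in both DNMT3A lines and −2.51% and −2.62% in the K777A lines. N656I lay between, with −15.97% and −16.9%, and N779A had −36.3% and −35.1%. DNMT3A and K777A lines thus lay together near 0, more than 12 points away from any other group.

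T at +2 had effects of −37.2% and −38.8% in the N656I lines. WT DNMT3B had −8.66% and −8.72% in set a and −9.97% and −11.4% in set b. DNMT3A had −18.7% and −18.8%, K777A −13.8% and −12.7%, and N779A −2.82% and −2.90%. N656I was the lowest and N779A the highest, and neither overlapped with any other group.

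C at +2 was above 0 in every line but those with K777A, where it was −9.94% and −8.73%. N656I had the largest, 14.8% and 15.0%, against 5.06% and 6.06% in WT set a. A at +2 was smallest with DNMT3A (21.4% and 20.9%) and largest with N656I (38.4% and 40.7%). For WT DNMT3B it lay between 30.0% and 35.6%, above both K777A lines (26.2% and 24.1%).

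At +3 the groups differed most at C and G. C at +3 had effects of 12.5% and 11.9% in WT set a, 13.5% in both lines of set b and 18.1% and 17.4% in N656I lines, but 2.96% and 2.68% with DNMT3A. K777A was the only group below 0, with −4.57% and −3.96%. G at +3 was highest with K777A (8.48% and 8.27%) and lowest with DNMT3A (−7.80% and −7.46%), and WT DNMT3B lay between −2.77% and −0.581%. Read as pairs of +3 bases, the highest level belonged to A on both strands for DNMT3A (51.3% ± 0.598) and N779A (18.3% ± 1.63). It belonged to C on both strands for WT set a (18.7% ± 0.802), WT set b (15.4% ± 0.979) and N656I (11.05% ± 2.51), and to G on both strands for K777A (18.5% ± 2.07). T on both strands at +3 was the lowest pair in all of these groups but DNMT3A, where G on both strands was lowest (36.6% ± 0.150).

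In 38 of the 40 comparisons of a base effect between groups (8 effects, 5 comparisons) the lines did not overlap, those between the 2 WT sets included in 6 of 8. Each of these 38 had an exact permutation p of 0.33, the smallest possible, and 0.351 after adjustment over the 40. Differences between the WT sets were at most 2.90 points (A at +2), against 28.9 points for G at +2 between K777A and set b and −29.3 points for T at +2 between N656I and set a.

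**Figure D3:**
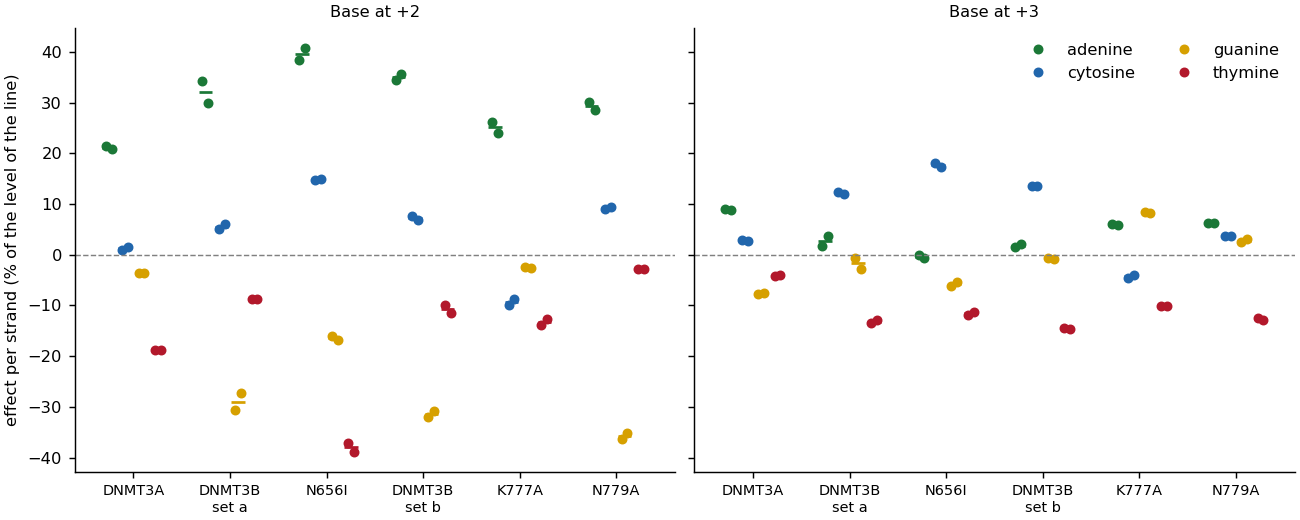
Effect of each base at +2 (left) and +3 (right) per strand, as % of the level of the line and centred on 0 (dashed), by group. Points are lines and bars are group means; guanine at +2 is near 0 in the DNMT3A and K777A lines and between −27.3 and −36.3 with WT DNMT3B and N779A, and thymine at +2 reaches −38.8 with N656I.

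Full contexts, with 3 bases on each side of the CpG and both strands merged, were then compared by limma. The test used all 2022 contexts of sparse sites with at least 20 covered sites in every line, of which 135 were ACGT contexts. Values are log2 odds of the mean level. In each line the median of all contexts was subtracted, so a change is relative to the median context and not an absolute one. The centred lines still left a median over all contexts of 0.17 (log2) for K777A and of at most 0.04 in size for the other comparisons. A call is a Benjamini-Hochberg adjusted p under 0.05 over all 2022 contexts.

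Against WT set a, DNMT3A changed 94 of the 135 ACGT contexts, a share near the 74% called over all contexts. Of these, 73 were higher (background 37.6%) and 21 lower (36.4%), and the median was 0.26 against 0.04 over all contexts. All 10 contexts with G at +2 on both strands were higher (median 1.32), as were all 16 with A and G (0.70). Of the 10 with T on both strands, 9 were lower and none was higher (median −0.46). Without centring, 134 contexts were higher and none lower, where 91.7% of all contexts were higher and 0.692% lower (median over all contexts 1.85).
The 3 contexts with the largest rise, relative to the median context, were TCACGTGA, ACACGTGA and CCACGTGA, all with the E-box hexamer. TCACGTGA had 50.9% and 49.6% with DNMT3A and 7.12% and 7.69% in WT set a (log2 change 1.83 ± 0.11, SE; limma, adjusted p = 4.66e-10). ACACGTGA rose by 1.72 and CCACGTGA by 1.45. The largest falls were at CAACGTCG (fell by 1.36), CAACGTTG (fell by 0.92) and CAACGTTC (fell by 0.84), all with AACGT. CAACGTCG had as few as 31 covered sites in a line and the largest SE of the 3 (0.25). Its levels were 30.7% and 32.3% against 21.5% and 28.4% in WT set a. At CAACGTTC the levels were 27.3% and 27.0% against 16.3% and 15.5%, so that the absolute level was still higher with DNMT3A and the fall is relative to the median context.

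N656I changed 92 of 135, a share near the 65% called over all contexts. Of these, 83 were lower (background 31.5%) and 9 higher (33.5%), with a median of −0.33 against 0.02 over all contexts. Every one of the 58 contexts with T at +2 on at least 1 strand was lower, whereas all 9 that were higher had C on one strand and G on the other. None of the 10 E-box contexts was called, with changes between −0.06 and 0.15. Without centring, 122 contexts were lower and none higher, where 55.3% of all contexts were lower and 2.08% higher (median over all contexts −0.61).
The largest falls were at TAACGTTA, AAACGTTG and AAACGTTC. TAACGTTA had 3.99% and 2.18% with N656I and 14.9% and 16.96% in WT set a (log2 change −2.01 ± 0.14, SE; limma, adjusted p = 7.16e-09). AAACGTTG fell by 1.92 and AAACGTTC by 1.66. The largest rises, all relative to the median context, were at ACACGTCG (0.76), CGACGTGA (0.74) and ACACGTCC (0.37), whose uncentred levels were not higher with N656I in every line: at ACACGTCC they were 11.7% and 9.78% against 12.7% and 12.2%. CGACGTGA lost its call without WT set a replicate 2 (change 0.29), without N656I replicate 2 (0.61), against set b (0.17), without centring (0.12), with a minimum of 5 reads (0.71) and in a fit of the 4 lines alone (0.74). ACACGTCC turned to −0.25 without centring and was not called with 10 reads (0.049). ACACGTCG was not called without centring (0.14) or against set b (0.46).

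K777A changed 131 of 135 ACGT contexts (80.1% called over all contexts), and all 131 were higher, where 43.6% of all contexts were higher and 36.4% lower. The median was 1.23 against 0.17 over all contexts. The change was largest with G at +2 on both strands (median 2.55, 10 of 10 higher) or on one strand with T (1.93, 16 of 16) or A (1.67, 16 of 16), and smallest with A and C (0.74, 13 of 16) and C on both strands (0.79, 9 of 9). Without centring, 41 contexts were higher and 8 lower, where 91 of all 2022 contexts were higher and 1280 lower (median over all contexts −0.85).
CCACGTGG, CCACGTGA and ACACGTGG changed most. CCACGTGG had 14.1% and 16.9% with K777A and 4.18% and 4.52% in WT set b (log2 change 3.02 ± 0.09, SE; limma, adjusted p = 1.45e-14). CCACGTGA rose by 2.69 and ACACGTGG by 2.62, and these levels were also higher without centring. With centring, no ACGT context was called lower.

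N779A changed 119 of 135 (55.5% called over all contexts). All 119 were higher, where 25.1% of all contexts were higher and 30.4% lower, and the median was 0.60 against 0.00 over all contexts. T at +2 on both strands gave the largest median (0.85, 10 of 10 higher) and G on both strands the smallest (0.27, 6 of 10). Without centring 59 were higher and none lower, where 4.75% of all contexts were higher and 24.8% lower.
The contexts that changed most were CGACGTAG, AAACGTTA and AAACGTTT. AAACGTTA had 13.7% and 14.7% with N779A and 9.03% and 8.07% in WT set b (log2 change 0.96 ± 0.07, SE; limma, adjusted p = 3.40e-08). AAACGTTT rose by 0.95. CGACGTAG had the largest value (1.196 ± 0.28, SE) and the largest SE of the 3, and it lost its call with a minimum of 5 reads (1.06) and against set a (0.55).

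Between the 2 WT sets limma called 0 of 135 ACGT contexts and 0% of all contexts. At an unadjusted p under 0.05, 22 of the 135 passed, 5 higher and 17 lower in set b, and 280 of all 2022. Without WT set a replicate 1, so that set a was represented by the library of unusual depth alone, 26 of 135 were called, 13 higher and 13 lower, a share near the 20.4% called over all contexts, and DNMT3A and N656I had 93 calls each (73.0% and 66.7% of all contexts called).
Without WT set a replicate 2, the WT sets again had 0 calls, DNMT3A 86 (71.2% of all contexts called) and N656I 88 (61.5%).

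**Figure D4:**
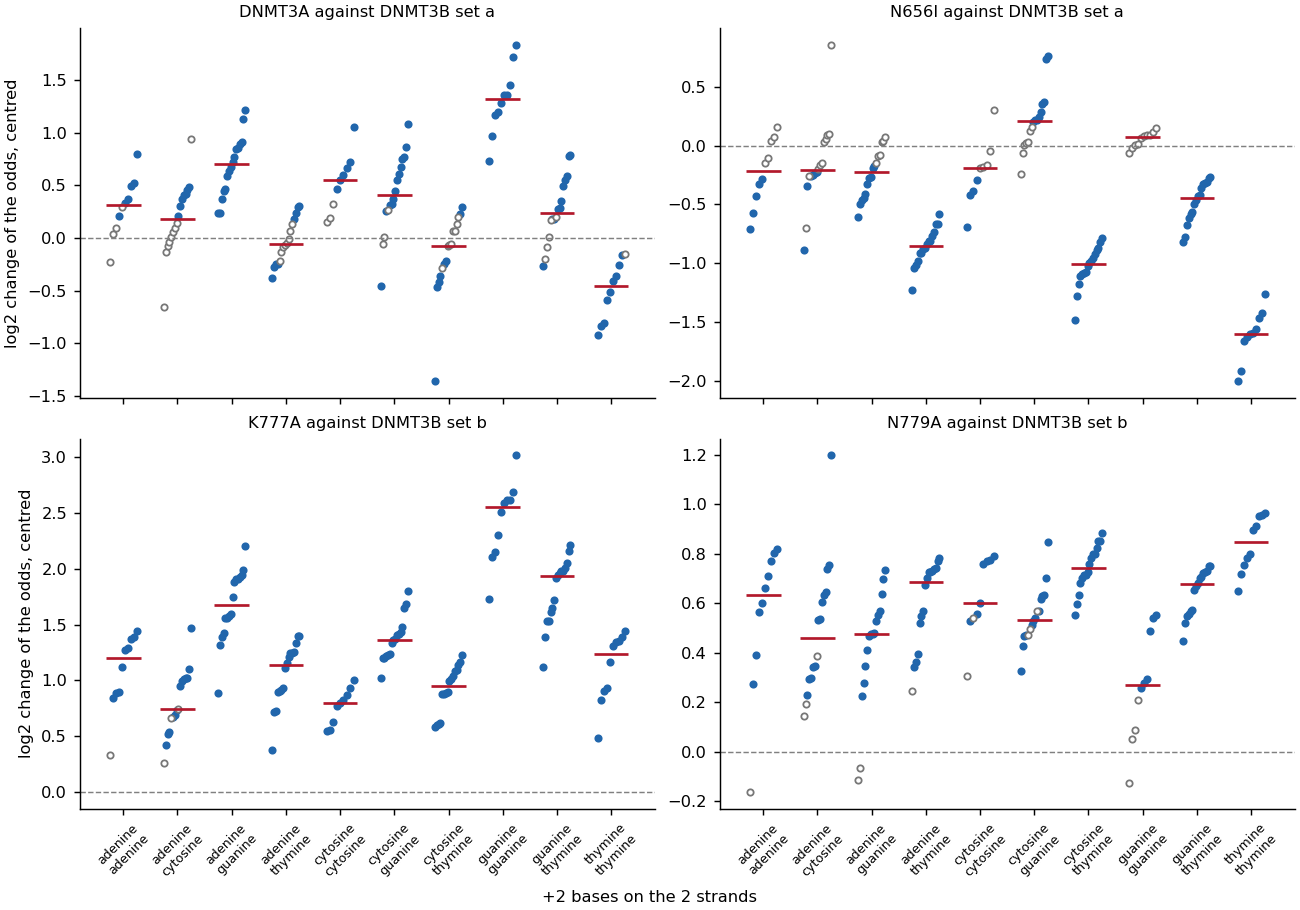
Change of each of the 135 ACGT contexts (log2 odds, each line centred on its median context), grouped by the bases at +2 on the 2 strands. Filled points passed limma at an adjusted p under 0.05, open points did not, and red bars are medians; guanine pairs lead for DNMT3A and K777A, and thymine pairs are lowest for N656I (median −1.60).

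Over the 127 ACGT contexts with at least 50 covered sites in every line, the highest was TTACGTAA for DNMT3A (66.7% ± 1.88) and N779A (34.4% ± 1.26). It was GTACGTAC for WT set a (33.7% ± 5.01), WT set b (32.3% ± 1.56) and N656I (27.0% ± 5.21), and CTACGTAG for K777A (28.5% ± 3.90). All 3 have TACGTA at the centre. The lowest was AAACGTTG for DNMT3A (21.9% ± 0.116), AAACGTTT for N656I (2.09% ± 0.254) and K777A (8.07% ± 0.634), CCACGTGG for WT set a (5.28% ± 0.457) and WT set b (4.35% ± 0.240), and ACACGTGT for N779A (4.68% ± 0.450).
As a description over these 127 contexts, which share the lines' depth and the bases at +2 and +3, Pearson's r of the log2 levels between replicates was 0.926 in WT set a and 0.977 to 0.991 in the other 5 groups. Between groups, DNMT3A lines had r of 0.820 to 0.836 with N656I, 0.594 to 0.599 with WT set a and 0.664 to 0.665 with K777A. WT set b had 0.928 to 0.946 with N779A and 0.511 to 0.565 with K777A.

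The 4 known elements that were followed as octamers contain ACGT: the full cAMP response element TGACGTCA, the ATF6 element TGACGTGG, and the E-boxes CCACGTGG (Myc-Max) and TCACGTGA (TFEB). A sequence match does not say that a factor binds there.
In group means the cAMP response element was above the ACGT average in all groups but K777A. It had 52.5% ± 0.963 with DNMT3A, 15.98% ± 1.82 in WT set a, 12.5% ± 1.73 in set b, 8.51% ± 1.64 with N656I and 18.01% ± 2.60 with N779A. The lines of WT set a lay on either side of their ACGT level. Replicate 1 was at 0.981 times that level, and replicate 2, the library of unusual depth, at 1.195 times on 398 sites. WT set b replicate 2 was at 1.002 times its ACGT level. K777A had 12.4% ± 1.53, or 0.832 times its ACGT level. The ATF6 element ranged from 10.5% ± 1.85 (N656I) to 38.4% ± 0.561 (DNMT3A).
The E-boxes were low with every DNMT3B enzyme but K777A. CCACGTGG had 31.1% ± 0.202 with DNMT3A, 15.5% ± 1.95 with K777A, and between 3.68% and 5.73% in the means of the other 4 groups. TCACGTGA had 50.2% ± 0.886 with DNMT3A, 15.0% ± 2.35 with K777A, and between 4.95% and 7.40% in the others. Relative to the median context, all 4 octamers rose with K777A (changes 1.00 to 3.02; without centring the cAMP response element turned to −0.015) and with N779A (0.54 to 0.76), every adjusted p by limma being 0.000631 or smaller. Neither E-box was called with N779A when lines were not centred (changes 0.41 and 0.40). With N656I the cAMP response element fell by 0.42 (limma, adjusted p = 0.00169), and the changes of the other 3 (−0.02 to 0.06) did not pass. Without centring all 3 were called lower (−0.65 to −0.56). With DNMT3A all but the ATF6 element (0.01, limma, adjusted p = 0.957) rose. That element was called higher without centring (1.82).

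The level depended little on how many CpG sites lay nearby. From 1 to 3 CpG sites in the window it rose from 40.8% to 44.0% in DNMT3A replicate 1, from 14.1% to 15.6% in WT set a replicate 1, from 8.35% to 9.57% in N656I replicate 1 and from 12.9% to 14.2% in K777A replicate 1. The ratio to all sparse sites with the same number of CpG sites moved little in these lines, apart from K777A, where it was 1.75 with 1 CpG site and 1.91 with 5 in replicate 1.

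By position, 6.24% of the members lay within 1000 bp of a transcript start, 3.98% in other exons, 43.7% in introns and 46.1% outside genes (GENCODE M21 annotation), and 19.7% lay in soft-masked repeats, against 24.5% of all sparse sites. Levels in exons exceeded those near transcript starts in every line, for example 46.0% against 38.7% in DNMT3A replicate 1 and 16.3% against 12.95% in K777A replicate 1. The ratio to all sparse sites of the same place stayed between 1.81 and 2.00 in the K777A lines and between 0.528 and 0.579 in the N656I lines over the 4 places. Within repeats and outside them alike, TACGTA was the highest hexamer in 12 of 12 lines, AACGTT the lowest in 6 and CACGTG the lowest in 6.

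Few single members were deep in every line. The 8 with the highest minimum, among sites of at most 200 reads in any line, had at least 21 reads in each of the 12 lines. They are shown as the members read most deeply in all 12 lines within that limit. Of the 8, 5 carried the same 32 bases in soft-masked repeats, so their reads may not be separable between copies. The 3 others had sequences that differed from these and from each other. Those on chromosomes 5 and 9 also lie in soft-masked repeats, so their reads may not be separable from other copies either. Sequences are GRCm38, forward strand, with ACGT in capitals:
chr8:20290250-20290281, intron of the pseudogene 6820431F20Rik: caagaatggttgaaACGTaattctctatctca
chr8:58118547-58118578, intron of Galntl6, and 4 other copies: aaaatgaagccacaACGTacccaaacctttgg
chr5:33330948-33330979, outside genes, repeat: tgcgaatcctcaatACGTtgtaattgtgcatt
chr9:3025506-3025537, within 1000 bp of a transcript start, at Gm10717 and Gm26870, repeat: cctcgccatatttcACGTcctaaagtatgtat

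The other 4 copies lie at chr3:33771305-33771336, chr8:59652880-59652911 and chr5:86688228-86688259 outside genes and at chr16:75954890-75954921 in an intron of Samsn1. The first 3 sequences have A at +2 on one strand and T on the other, and the last has C and G.
Over the 5 copies, each read in 2 lines per group, the median level was 30.8% with DNMT3A (7.69% to 47.4%), 10.6% in WT set a (4.39% to 27.0%) and 10.6% in WT set b (2.30% to 22.5%). It was 5.21% with N656I (1.80% to 8.62%), 9.98% with K777A (1.37% to 19.5%) and 12.2% with N779A (4.76% to 26.6%). The DNMT3A values were mostly the highest and the N656I values lay low, but the ranges of all groups overlapped.
At the site on chromosome 8 in 6820431F20Rik, DNMT3A gave 54.5% (95% Wilson interval 43.5 to 65.2, 77 reads) and 80.0% (70.0 to 87.3, 80 reads). The 2 WT lines of set a gave 15.7% of 108 reads and 0 of 125 reads, which allows a level of up to 2.40%, and those of set b gave 0 of 50 reads, which allows up to 6%, and 19.7% of 61 reads. The values of the 2 WT lines of a set lay far apart at this site. N656I gave 10.4% and 7.89%, K777A 19.8% and 15.8%, and N779A 31.0% and 28.6%. DNMT3A was highest here, and the K777A lines lay around WT set b replicate 2.
The other 2 sites were read less deeply in most lines. On chromosome 9, DNMT3A gave 62.2% and 72.7%, WT set a 46.4% and 28.6%, and WT set b 51.7% and 28.6%. N656I gave 16.7% and 29.6%, K777A 18.6% and 16.8%, and N779A 12.5% and 35.3%. Both K777A values lay below those of set b, but the Wilson intervals of K777A (12.5 to 26.8 and 12.2 to 22.8) overlapped with that of set b replicate 2 (13.8 to 50.0, 21 reads).
On chromosome 5, DNMT3A gave 22.1% and 23.3%, and WT set b 4.26% and 3.23%. K777A gave 2.70% of 37 reads and 2.53% of 79 reads, whose Wilson intervals (up to 13.8 and 8.77) held both set b values, and N779A gave 4.55% and 12.2%. WT set a gave 0 of 49 reads, which allows up to 6.12%, and 15.4%, and N656I gave 5.41% and 0 of 35 reads, which allows up to 8.57%. At all 3 sites both DNMT3A lines lay above all other lines. Wilson intervals and limits cover counting error only, and do not allow for reads from other copies of a repeat.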

How the data were processed

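Per the sample labels and the study's methods, the authors trimmed the read pairs with cutadapt (version 1.12 in the submitters' processing notes), aligned them with Bismark 0.18.1 and Bowtie 1.2 to mm10, left out pairs in which a read had at least 3 methylated cytosines outside CpG and collapsed both strands. For each CpG site and line the authors deposited the counts of methylated reads and of all reads, neither normalized nor pooled. All 21867550 rows were checked to be CG in GRCm38.

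The members, contexts and tests were chosen with earlier results of these data known. Levels are means over covered members. The study combined replicates before it kept sites of 10 or more reads, whereas the alternative here asks for 10 reads in each line. Contexts were tested with limma 3.58.1 in R 4.3.3 in 1 fit of 12 lines with 6 group means, a variance trend on the log2 number of sites, and log2 odds to which 0.5 over the site number was added as an offset. Other calculations used Python 3.11.15, numpy 2.4.6 and scipy 1.17.1. Both fits were tested on simulated data. Contexts named are the 4 hexamers, 4 octamers, the highest and lowest of each group, and the 3 largest called changes per direction and comparison whose lines did not overlap. Alternatives were 5 or 10 reads, reads weighted equally, no sites above the 99.9th percentile of coverage, 1 or 2 CpG sites in the window, sites covered in all 4 lines, a term for CpG number, no centring, log2 levels, 100 sites per context, 4 lines per fit, the other WT set (for levels, chosen after seeing the data), a replicate block and each line left out. Replicate numbers did not pair lines. Single sites on chromosome 18 were left out.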

Additional observations from a re-analysis of the deposited data

Results flagged for a closer look

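Results were picked out for a closer look where both lines of a group lay on one side of 0, or of the average, and both lines of its WT set lay on the other. These differences were not tested beyond the permutation test of 2 lines against 2, which cannot pass 0.05. For base effects, as % of the level of the line per strand, K777A and WT set b lay on opposite sides of 0 for C at +2 (difference −16.6), C at +3 (−17.8) and G at +3 (9.12). N656I and WT set a did so for A at +3 (−3.15), and N779A and WT set b for G at +3 (3.47). The last 2 are small: the means on either side were −0.406 and 2.75 for A at +3, and 2.73 and −0.741 for G at +3. For the level at ACGT sites against all sparse sites, on the log2 scale, DNMT3A lay above 0 and WT set a below it (difference 0.37). K777A and N779A lay above 0 and WT set b below it (differences 1.24 and 0.54).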

How the results depend on the processing

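Depth limited the single sites and the contexts: with 10 reads, 42 ACGT contexts could be tested in place of 135. Every level and ratio kept its direction under every alternative run, but against the other WT set, an alternative chosen after seeing the data, the K777A and N779A levels were only 0.184 and 0.651 points higher, with overlapping lines. DNMT3A and N656I then differed by 30.9 and −3.90 points, and the ratio differences were 0.261 (DNMT3A), −0.242 (N656I) and 0.334 (N779A). Under each of 5 alternatives TACGTA was the highest hexamer in 12 lines, AACGTT the lowest in 6 and CACGTG the lowest in 6. DNMT3A minus WT set a was 28.9 points with a minimum of 5 reads, 28.9 with 10 reads, 28.7 with reads weighted equally, 27.3 with 1 or 2 CpG sites and 28.6 on sites covered in all 4 lines; the ratio difference there was 0.220. WT set b minus set a was −2.09 points with 10 reads, and its ratio difference was −0.0124 with 5 reads, −0.00226 with 10 and −0.00641 on shared sites. The K777A ratio difference was 1.02 with 10 reads and 1.03 with 1 or 2 CpG sites. The mean effect of C at +2 was between 3.88 and 6.15 when 1 line was left out.

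Counts of called ACGT contexts with 10 reads were 20 (DNMT3A), 15 (N656I), 40 (K777A) and 19 (N779A) of 42 (47.6%, 35.7%, 95.2% and 45.2%) against 94, 92, 131 and 119 of 135 with all sites, and the cause was not tested. Over all 377 contexts 51.7%, 44.6%, 72.1% and 24.4% were called. Without centring the counts of called ACGT contexts were 134 for DNMT3A, 122 for N656I, 49 for K777A, 59 for N779A and 1 between the WT sets. Over all contexts 92.4%, 57.4%, 67.8%, 29.6% and 2.72% were then called. The K777A minus WT set b level was 1.88 to 4.36 points with 1 line left out. Counts with 1 of the 4 lines of a comparison left out were 77 to 93 for DNMT3A, 78 to 93 for N656I, 128 to 131 for K777A, 105 to 115 for N779A and 0 to 26 between the WT sets. Over all contexts the shares called were then 64.2% to 73.0%, 54.4% to 66.7%, 74.5% to 75.7%, 45.9% to 49.4% and 0% to 20.4%. Leaving out a line of WT set a, which shares the fit, gave 134 for K777A and 124 for N779A, with 82.1% to 82.9% and 61.5% to 62.1% of all contexts called. With a replicate block the counts were 93, 90, 132, 119 and 0, with 73.7%, 65.0%, 79.9%, 55.5% and 0% of all contexts called. The block changed the call of no named context. Replicate numbers were only names: lines with the same number deviated with r between −0.0396 and 0.0552 over 15 pairs of groups.

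For the 32 named contexts and comparisons, 680 of 713 alternatives kept direction and call. Without centring, CAACGTCG (0.45), CAACGTTG (0.90) and CAACGTTC (0.98) turned positive for DNMT3A, since that removes the correction for its higher overall level. By the same construction ACACGTCC (−0.25), CCACGTCA (−0.60) and CCACGTGG (−0.56) turned negative for N656I, and TGACGTCA (−0.015) for K777A. Other turns were of changes that did not pass. CCACGTGG for N656I was −0.083 with 5 reads, −0.046 with 10 and −0.14 with 1 or 2 CpG sites. For N656I, CCACGTCA (the ATF6 element on the other strand) was −0.0048 with 100 sites per context and −0.14 to 0.19 with 1 line left out. TCACGTGA was 0.12 against the other WT set and −0.11 to 0.068 with 1 line left out. For DNMT3A, CCACGTCA was −0.16 to 0.17 with 1 line left out. Where no alternative's own construction shows it, the cause was not tested.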
